A study of Homo sapiens with 24 samples.

Results

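The 31 genes described here encode the constitutive subunits of the proteasome. They were taken as a list of established subunit genes, 14 of the 20S core and 17 of the 19S regulatory particle, and all 31 were found among the 28907 gene symbols of the deposited table. The RNA came from A2780 and ES2, established lines of human ovarian cancer that are both labelled wild type. Cells of either line were given siVRK1, which targets the kinase VRK1, or its control siCtrl, and others luteolin, a plant flavone, or its solvent DMSO, with 3 libraries in each of the 8 groups. The siCtrl groups are the controls of siVRK1 and the DMSO groups those of luteolin. The labels give no dose, time or siRNA sequence. Groups were read from the sample titles, because the treatment label of some siVRK1 libraries reads siVRK2 or siVRK3. Nothing in the labels ties the libraries of 1 group to different cultures, and p-values therefore measure a spread between samples that may be technical.

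The proteasome degrades proteins that carry ubiquitin chains. Its 20S core is a barrel of alpha rings, which gate the entrance, and beta rings, in which PSMB5, PSMB6 and PSMB7 carry the chymotrypsin-like, caspase-like and trypsin-like proteolytic sites. The 19S particle has a base, whose ring of ATPases (PSMC1 to PSMC6) unfolds substrates, and a lid, in which PSMD14 removes ubiquitin before the substrate enters the core. In mammalian cells the subunit genes are known to be raised together by the transcription factor NFE2L1 when proteolysis falls short, and tumour cells are known for a high demand on this machinery.

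Values are TPM, a transcript's length-corrected share of all transcripts, summed over the transcripts of a symbol. They are shares of a fixed total, so sequencing depth is unknown, and less proteasome mRNA per cell cannot be told apart from more of other RNAs. VRK1, the target of the siRNA, fell by 2.40 on the log2 scale with siVRK1 in A2780 and fell by 3.80 in ES2, without overlap between the groups (adjusted p = 1.75e-08 and 6.94e-11). With luteolin VRK1 fell by 0.43 in A2780 (adjusted p = 0.00357) and was at 0.02 in ES2 (adjusted p = 0.881). Of the 9 ovarian or epithelial markers read, A2780 summed to 5.99 to 12.6 TPM, with PAX8, WT1 and MUC16 at or near 0. ES2 summed to 636 to 992 TPM, nearly all of it KRT7, KRT8 and KRT18, with MUC16, WFDC2 and MSLN at 0, EPCAM at a median of 0.11 and PAX8 and WT1 at medians of 0.987 and 1.57. Leukocyte markers summed to at most 1.98 TPM in any library. The 13 mitochondrial mRNAs took a larger share of the TPM with luteolin, 10.5% ± 1.40 (SD, n = 3) against 7.10% ± 1.03 in A2780 and 7.78% ± 0.791 against 4.57% ± 0.564 in ES2. In ES2 the 4 fibroblast markers, mostly COL1A1 (11.2 to 128 TPM, with LUM at a median of 0, DCN of 0.568 and PDGFRA of 3.6), summed to 111 to 133 TPM with DMSO and 15.6 to 20.8 with luteolin, and to 81.7 to 97.9 with siCtrl and 51.9 to 64.3 with siVRK1. The 4 endothelial markers of ES2 summed to 36.0 to 39.8 TPM with DMSO and 9.59 to 10.7 with luteolin, mostly CDH5 (8.52 to 39.3), with VWF and CLDN5 at medians of 0 and PECAM1 of 0.367. The ES2 epithelial sum was 962 to 986 with siCtrl against 636 to 675 with siVRK1, and 952 to 992 with DMSO against 705 to 775 with luteolin. The part of these markers in the results below was not tested.

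The promoters of 4 members are shown because their genes mark the extremes described below: PSMA3 had the largest fall with siVRK1 in both lines, PSMB5 had a change near 0 there, and PSMC6 and PSMD12 had the largest falls with luteolin in ES2. Sequences are from RefSeq on GRCh38.p14 and end at the RefSeq start site or at the first base that a GENCODE 29 exon covers. Capitals mark matches, on either strand, to CCAAT (the CCAAT box), CCGGAAG (an ETS site) or TGACNNNGC (the core of the element that NFE2L1 and its relatives bind).
PSMA3, chr14:58244663-58244830, plus strand: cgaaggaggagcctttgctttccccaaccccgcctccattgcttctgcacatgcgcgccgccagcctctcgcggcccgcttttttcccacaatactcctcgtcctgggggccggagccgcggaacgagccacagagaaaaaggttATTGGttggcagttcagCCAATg
PSMB5, chr14:23035231-23035400, minus strand: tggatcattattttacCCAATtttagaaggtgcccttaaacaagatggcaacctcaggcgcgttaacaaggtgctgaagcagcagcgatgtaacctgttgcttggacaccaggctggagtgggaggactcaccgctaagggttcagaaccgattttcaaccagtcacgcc
PSMC6, chr14:52707020-52707171, plus strand: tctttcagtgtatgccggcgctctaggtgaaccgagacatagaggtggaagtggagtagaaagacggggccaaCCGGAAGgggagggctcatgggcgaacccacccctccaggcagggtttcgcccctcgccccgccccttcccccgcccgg
PSMD12, chr17:67366628-67366757, minus strand: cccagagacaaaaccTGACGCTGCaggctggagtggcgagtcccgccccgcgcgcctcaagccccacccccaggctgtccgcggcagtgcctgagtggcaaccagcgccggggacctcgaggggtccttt
The PSMA3 stretch holds CCAAT starting 18 bases before the start site, and its reverse complement 35 bases before it. PSMB5 holds CCAAT 164 bases before the start, PSMC6 holds CCGGAAG 107 bases before it, and PSMD12 holds TGACNNNGC 165 bases before it. The PSMD12 promoter also has the reverse complement of CCGGAAG at position -8 from the start, past the end of the stretch shown.

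Promoters of 26 of the 31 genes were in the RefSeq table, which gives 250 bases before and 50 after each start. PSMA7, PSMB1, PSMB6, PSMB7 and PSMD4 were not matched. CCGGAAG stood in 9 of the 26 (34.6%), against 10.7% of all 27305 promoters of the same length, and those 9 were all of 19S genes (9 of 16 19S promoters, 0 of 10 20S promoters). CCAAT stood in 14 (53.8%, against 35.7%) and GGGCGG (an SP site) in 18 (69.2%, against 44.6%). The motif of the nuclear respiratory factor NRF1 stood in 5 (19.2%, against 6.28%). That motif is a different run of letters from the core that NFE2L1 and its relatives bind, which is given next. TGACNNNGC stood in 5, PSMB3, PSMC4, PSMD1, PSMD3 and PSMD12 (19.2%, against 13.6%), and TGACGTCA in 0 (against 1.98%). A match is a run of letters and not a measured binding site.

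In control cells every subunit gene was abundant with all its transcripts summed. The members ranged over 8.20-fold in A2780 and 8.76-fold in ES2 in mean TPM over the 6 control libraries (siCtrl and DMSO). PSMC2, an ATPase of the base, was lowest in both lines, at 80.7 TPM in A2780 and 85.9 in ES2. The highest was PSMB4, a beta subunit without a proteolytic site, at 661 TPM in A2780, and PSMD2, a scaffold of the base that docks ubiquitin shuttles, at 752 in ES2. The 20S genes had a median of 294 TPM in A2780 and 319 in ES2, against 174 and 157 for the 19S genes. These levels include transcripts not annotated as protein coding. The protein-coding transcripts of PSMA5 averaged 16.98 TPM with siCtrl and 15.53 with DMSO in A2780, and 16.19 and 12.06 in ES2. The range of the members by protein-coding transcripts alone was not computed. Among the catalytic subunits the order differed between the lines: in A2780 PSMB5 was at 480 TPM, PSMB7 at 312 and PSMB6 at 308, and in ES2 PSMB7 was at 324, PSMB6 at 314 and PSMB5 at 255.

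Between the lines, control levels of single subunits differed in both directions. In ES2 controls 11 members were higher and 13 lower than in A2780 controls, against 34.3% of the 14328 tested genes called higher and 49.4% called lower. Out of 31 members, both counts are near these shares, so such differences are not particular to the members. PSMD2 was 249 TPM in A2780 and 752 in ES2, a log2 difference of 1.59 ± 0.02 (SE of the limma fit on log2 of TPM + 1; adjusted p = 5.89e-23). PSMB1, a beta subunit, was 205 and 429 TPM (1.05 ± 0.02, adjusted p = 8.57e-20). PSMD12, a scaffold of the lid, PSMA7 of the alpha ring and the ATPase PSMC5 were higher by 0.59, 0.57 and 0.51. In the other direction, PSMD8 of the lid was 289 TPM in A2780 and 128 in ES2 (-1.17 ± 0.03, adjusted p = 3.96e-18). PSMB5 differed by -0.91, PSMD7 of the lid by -0.85, the base scaffold PSMD1 by -0.67 and PSMB4 by -0.51. Of the other members named throughout, PSMD4, a ubiquitin receptor, differed by -0.35 (adjusted p = 2e-10) and PSMD14 by 0.15 (adjusted p = 0.000448). The control levels of PSMB6 (0.02, adjusted p = 0.418) and PSMB7 (0.02, adjusted p = 0.39) did not pass, but both were called higher in ES2 with median-of-ratios scaling (0.17, adjusted p = 0.000186, and 0.18, adjusted p = 3.09e-06). PSMD12 differed by 0.17 when only protein-coding transcripts were summed.

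The median difference of all genes was -0.17, and median-of-ratios scaling moved it to -0.03, a shift past 0.1, so the counts of members depend on the scaling: 18 were then higher and 8 lower, against 40.1% and 43.5% of all genes. Relative to the all-gene median, PSMD2 was at 1.76, PSMB1 at 1.21, PSMD8 at -1.002 and PSMB5 at -0.74, and these kept their direction.

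**Figure D1:**
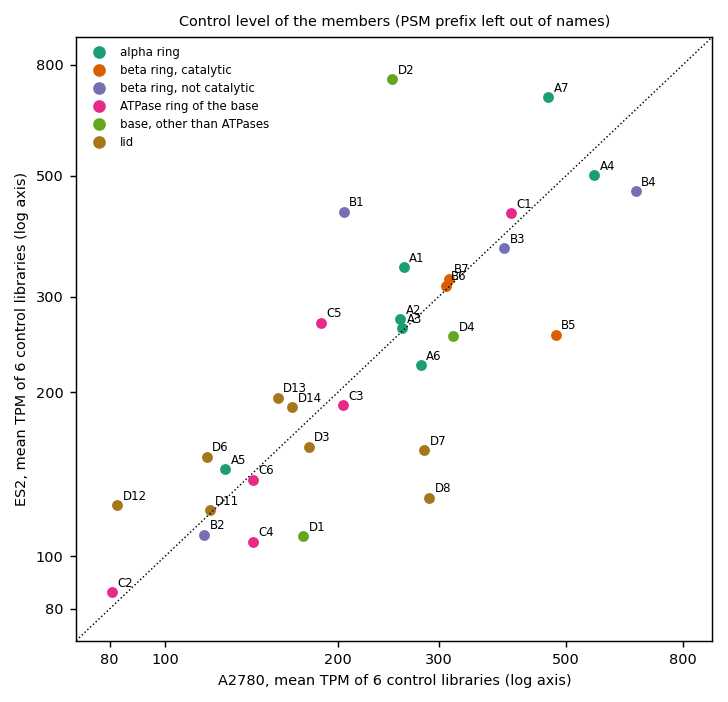
Mean TPM of each member over the 6 control libraries of A2780 (x axis) and of ES2 (y axis), on log axes, with 1 point per gene coloured by subcomplex and the PSM prefix left out of the names; the dotted line marks equal levels. PSMD2 (249 and 752 TPM) and PSMB1 (205 and 429) lie far above the line, and PSMD8 (289 and 128) and PSMB5 (480 and 255) far below it.

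Summed over the 31 genes, proteasome mRNA was lower in every treated group than in its control, without overlap of libraries. In A2780 the libraries held 8231, 8181 and 8224 TPM with siCtrl and 7502, 7289 and 7140 with siVRK1, so the mean was 11% lower. They held 7752, 7646 and 7820 with DMSO and 5814, 5994 and 5818 with luteolin, 24.1% lower. The luteolin libraries were thus the lowest of that line. In ES2 the sums were 9318, 9123 and 9244 with siCtrl and 7709, 7533 and 7522 with siVRK1, 17.8% lower. They were 7106, 7423 and 7361 with DMSO and 5611, 5553 and 5659 with luteolin, 23.1% lower. The 2 ES2 control groups lay far apart themselves, with means of 9228 and 7297 TPM, and the siVRK1 libraries were above every DMSO library. This difference between controls was not tested.

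Sums of both particles were lower. With siVRK1 the 20S sum was 8.78% lower and the 19S sum 14% lower in A2780, and 17.2% and 18.5% lower in ES2. With luteolin the 20S sum was 25.1% and the 19S sum 22.7% lower in A2780, against 19.5% and 27.9% in ES2. The 20S genes held between 56.7% and 59.5% of the summed TPM in all 8 group means. These sums are descriptions without a test, and the most abundant genes weigh most in them.

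**Figure D2:**
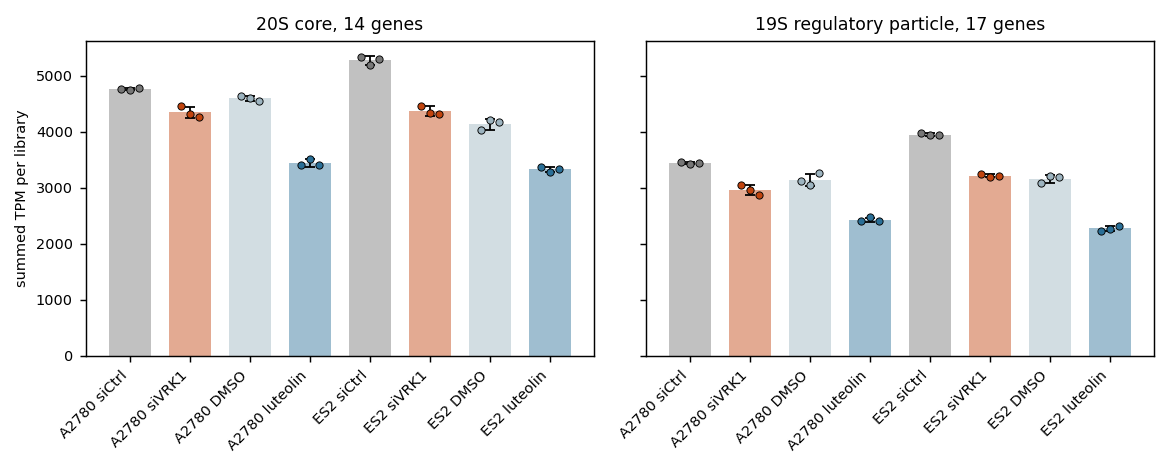
Summed TPM of the 14 genes of the 20S core (left) and the 17 genes of the 19S regulatory particle (right) in the 8 groups; bars are means of 3 libraries, error bars the SD and points the libraries. In each line the siVRK1 bars lie below siCtrl and the luteolin bars below DMSO, with no overlap of points within a pair.

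In A2780 cells, knockdown of VRK1 went with lower mRNA of 18 of the 31 members and with higher mRNA of none. All 31 members passed the filter on low values in each comparison (3 or more libraries of the fit with a TPM of 1 or more), and a gene was called at an adjusted p below 0.05. Of the 13012 genes tested, 27% were called lower and 13.8% higher, and among the 2081 genes at or above the level of the lowest member 37.3% were called lower. With no adjustment of limma's p, 0 members were higher and 21 lower at 0.05. The member median was -0.19, against -0.08 over all genes and -0.075 over the 2081 genes at or above the lowest member's level. No member reached a 2-fold change. By subcomplex, 3 of 7 alpha subunits, 2 of 3 catalytic and 2 of 4 other beta subunits fell, as did 3 of 6 ATPases, 3 of 3 other base subunits and 5 of 8 lid subunits.

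PSMA3, of the alpha ring, was at 280, 281 and 270 TPM with siCtrl and 195, 196 and 182 with siVRK1 in A2780. All siVRK1 libraries were below all controls, and the gene fell by 0.53 ± 0.04 on the log2 scale (adjusted p = 1.72e-06). PSMD7, the lid subunit that pairs with PSMD14, was at 298, 289 and 295 TPM and then at 233, 211 and 198 (-0.46 ± 0.07, adjusted p = 0.00017). PSMD4 went from 335, 345 and 335 TPM to 258, 270 and 256 (-0.37 ± 0.04, adjusted p = 1.02e-05). The ATPase PSMC2 (-0.35, adjusted p = 0.00144) and the lid subunit PSMD3 (-0.34, adjusted p = 8.55e-05) completed the 5 largest falls. Of the catalytic subunits, PSMB6 fell by 0.22 (adjusted p = 0.000802) and PSMB7 fell by 0.19 (adjusted p = 0.00298). PSMB5 stood apart from them, with libraries at 446, 443 and 458 TPM under siCtrl and 479, 456 and 436 under siVRK1, which overlap (0.02 ± 0.04, adjusted p = 0.672). PSMD14 fell by 0.27 (adjusted p = 0.00195). With median-of-ratios scaling 11 members were lower, all among the 18, and 1 was higher, PSMD6 of the lid (0.10, adjusted p = 0.0404), while 20.7% of all genes were called lower and 20.3% higher. Estimates of 9 members were above 0 with that scaling, against 3 without it. The share called lower among genes at or above the lowest member's level was not computed for it. PSMB6 (adjusted p = 0.0881) and PSMB7 (adjusted p = 0.107) were then no longer called.

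In ES2 cells the same siRNA went with lower mRNA of 25 members and higher mRNA of none, and all 31 estimates were below 0. Among the 12507 genes tested, 28% were called lower and 26.8% higher, and among the 1878 at or above the lowest member's level 39.9% were called lower. Without adjustment of limma's p, 27 members were lower and 0 higher. The member median was -0.27, against 0.00 over all genes (-0.0022) and -0.05 over the 1878 genes at or above the lowest member's level. Again no member reached 2-fold. Here 5 of 7 alpha subunits, 2 of 3 catalytic and 4 of 4 other beta subunits, 5 of 6 ATPases, 3 of 3 other base subunits and 6 of 8 lid subunits fell. With median-of-ratios scaling the counts were 26 lower and 0 higher, against 28.7% and 27.1% of all genes.

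PSMA3 had the largest fall again, from 329, 324 and 314 TPM to 193, 185 and 186 (-0.77 ± 0.04, adjusted p = 1.97e-08). Its level was thus cut to a fold of 0.585 with every siVRK1 library below every control. PSMD13, a lid subunit, was at 239, 231 and 231 TPM with siCtrl and 151, 152 and 150 with siVRK1 in ES2 (-0.63 ± 0.04, adjusted p = 2.88e-08). The spread within either group was small beside that step. PSMD7 (-0.53, adjusted p = 7.19e-07), PSMD3 (-0.51, adjusted p = 3.17e-07) and the ATPase PSMC4 (-0.49, adjusted p = 1.63e-05) followed. PSMB6 fell by 0.39 (adjusted p = 7.43e-07), PSMB7 by 0.21 (adjusted p = 0.00022; -0.12 with quantile normalization), PSMD4 by 0.36 (adjusted p = 1.62e-05) and PSMD14 by 0.33 (adjusted p = 3.32e-05). PSMB5 libraries overlapped once more, at 247, 251 and 254 TPM against 243, 254 and 247 (-0.02 ± 0.04, adjusted p = 0.74).

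The 2 lines gave like profiles over the members with siVRK1. Across the 31 genes, which are not independent replicates, the changes in A2780 and ES2 correlated at a Pearson r of 0.739 and a Spearman rho of 0.713, given as a description. The test of the difference between the lines found 9 members with a more negative change in ES2 and 0 with a less negative one, against 13.2% of all 14328 genes called lower and 20.7% called higher. At an unadjusted p of 0.05 in limma these counts were also 9 and 0. PSMC4 differed by -0.40 ± 0.07 (adjusted p = 0.000229), since it was at 157, 145 and 156 TPM and then 146, 145 and 138 in A2780, where the libraries overlap, but at 118, 114 and 132 and then 92.1, 85.1 and 80.3 in ES2, where they do not. PSMD13 differed by -0.36 (adjusted p = 5.05e-06) and PSMB4 by -0.32 (adjusted p = 1.14e-05). PSMB4 was at 664 and 682 TPM in the A2780 means and at 521 and 430 in ES2. PSMA3 and PSMC1 each differed by -0.24 (adjusted p = 0.0034 and 0.00193) and PSMB6 by -0.17 (adjusted p = 0.00923). PSMB6 was at -0.28 with median-of-ratios scaling (adjusted p = 0.00546) and was not called with quantile normalization (-0.12, adjusted p = 0.0764). The differences of PSMB5 (-0.04, adjusted p = 0.6), PSMB7 (-0.02, adjusted p = 0.798), PSMD4 (0.01, adjusted p = 0.933) and PSMD14 (-0.06, adjusted p = 0.547) did not pass, though PSMD14 did with median-of-ratios scaling (-0.17, adjusted p = 0.0416). With median-of-ratios scaling 18 members were lower and 0 higher, against 19.3% and 15.6% of all genes, and PSMC1 differed by -0.15 when protein-coding transcripts alone were summed.

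With luteolin nearly every subunit mRNA was lower in both lines. In A2780, 30 of the 31 members were lower and none higher, against 19.9% of the 13012 genes called lower and 45.6% called higher, and 48.6% called lower among the 2081 genes at or above the lowest member's level. The unadjusted limma p gave the same counts, 30 and 0. All 31 members had luteolin libraries below all DMSO libraries, as did 21.1% of the 13012 genes, while 46.2% had them above. The member median was -0.43, while the median of all genes was 0.22. Among the 2081 genes at or above the lowest member's level the median was -0.13, so values relative to the all-gene median exceed those relative to abundant genes. Median-of-ratios scaling moved the all-gene median to -0.01, and 31 members were then lower and 0 higher, against 34.7% of all genes called lower and 30.2% higher. Relative to the all-gene median, the 31 changes ran from -0.94 (PSMC3) to -0.295 (PSMA1).

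PSMC3, an ATPase of the base, was at 212, 214 and 221 TPM with DMSO and 132, 133 and 127 with luteolin in A2780. The groups lie far apart, and the gene fell by 0.72 ± 0.04 (adjusted p = 2.7e-08). PSMD1 went from 182, 166 and 179 TPM to 108, 112 and 111 (-0.67 ± 0.04, adjusted p = 4.47e-08). PSMA2, of the alpha ring, was 271, 260 and 259 TPM and then 163, 174 and 165 (-0.65 ± 0.04, adjusted p = 2.74e-08), a gene whose mean had been 250 TPM with both siRNAs. PSMB6 fell by 0.65 (adjusted p = 3.63e-08) and PSMD12 by 0.64 (adjusted p = 1.98e-05). PSMB5 was at 513, 520 and 501 TPM with DMSO and 407, 408 and 390 with luteolin (-0.35 ± 0.04, adjusted p = 7.55e-06), so all 3 catalytic subunits fell, with PSMB7 at -0.24 (adjusted p = 0.000317). With quantile normalization PSMB5 (-0.09, adjusted p = 0.0767) and PSMB7 (-0.10, adjusted p = 0.0604) were not called. PSMD4 fell by 0.47 (adjusted p = 3.2e-07) and PSMD14 by 0.34 (adjusted p = 0.000162). Relative to the all-gene median PSMC3 was at -0.94, PSMB6 at -0.87, PSMB5 at -0.56, PSMB7 at -0.45, PSMD4 at -0.69 and PSMD14 at -0.56. The single member not called was PSMA1 of the alpha ring, at 234, 234 and 238 TPM and 219, 231 and 220 (adjusted p = 0.121).

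In ES2, 29 members were lower with luteolin and none higher, against 25.8% of the 12507 genes called lower, 22.6% called higher, and 51.0% called lower among the 1878 genes at or above the lowest member's level. By the unadjusted limma p these counts were 29 and 0. The member median was -0.44, against 0.00 over all genes (-0.0033) and -0.14 over the 1878 genes at or above the lowest member's level. Each of the 7 alpha subunits, 6 ATPases and 8 lid subunits fell, as did 2 of 3 catalytic, 4 of 4 other beta and 2 of 3 other base subunits. With the mitochondrial mRNAs removed, 27 members were lower here and 29 in A2780, against 22% and 18% of all genes.

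PSMC6, an ATPase of the base, was at 115, 127 and 134 TPM with DMSO and 64.6, 66.9 and 66.1 with luteolin in ES2. This was the largest change of any member in any treatment on TPM without further scaling (-0.91 ± 0.05, adjusted p = 6.17e-08), a fold of 0.531. With median-of-ratios scaling PSMC6 was at -0.92 here, and PSMC3 with luteolin in A2780 was at -0.98. PSMD12 was at 100.8, 114 and 112 TPM and then 60.2, 64.7 and 62.2 (-0.80 ± 0.05, adjusted p = 1.1e-07). That fall rested on transcripts annotated as not protein coding: these summed to 74.6 ± 6.11 TPM (SD, n = 3) with DMSO and 31.0 ± 2.12 with luteolin, while the protein-coding ones summed to 34.5 ± 3.78 and 31.3 ± 2.0 (-0.13, adjusted p = 0.172). PSMC1, the ATPase that helps open the core's gate, went from 364, 363 and 370 TPM to 210, 219 and 212 (-0.77 ± 0.03, adjusted p = 2.49e-09). PSMA3 fell by 0.72 (adjusted p = 7.29e-08) and the lid subunit PSMD11 by 0.63 (adjusted p = 2.28e-05). PSMB6 fell by 0.61 (adjusted p = 2.98e-08), PSMB5 by 0.47 (adjusted p = 7.21e-07) and PSMD14 by 0.60 (adjusted p = 3.46e-07).

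The 2 members not called in ES2 were PSMB7 and PSMD4. PSMB7 was at 248, 263 and 259 TPM with DMSO and 248, 242 and 258 with luteolin (-0.04 ± 0.04, adjusted p = 0.353). PSMD4 was at 205, 220 and 202 TPM and 211, 194 and 216 (-0.02 ± 0.04, adjusted p = 0.787). Libraries of both groups overlap for either gene, and with quantile normalization both were higher, at 0.12 (adjusted p = 0.00714) and 0.13 (adjusted p = 0.0187).

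**Figure D3:**
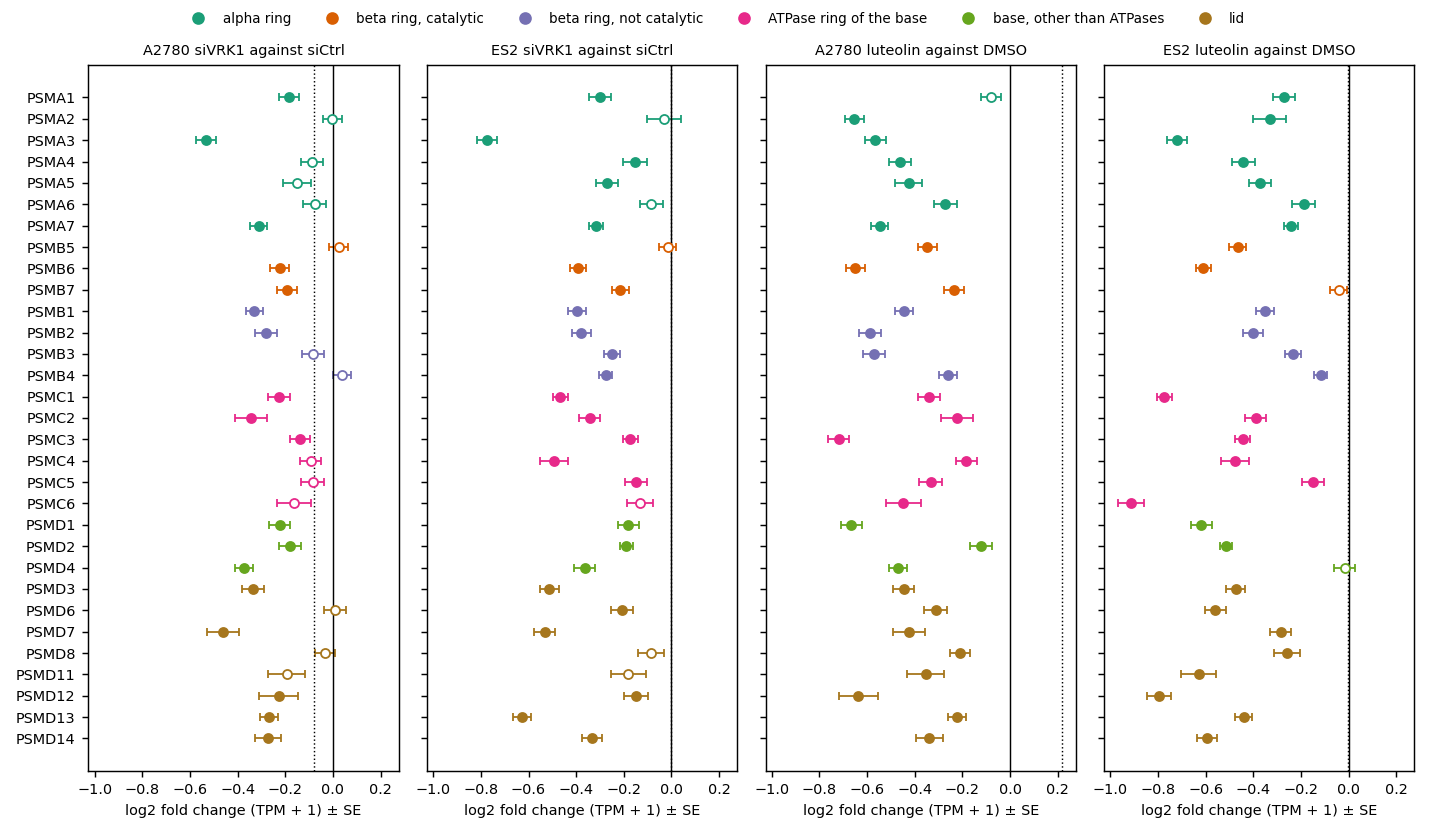
Log2 fold change of TPM + 1 (x axis, error bars SE) of the 31 members (rows) in the 4 treatments, coloured by subcomplex; filled points passed an adjusted p below 0.05, open points did not, and dotted lines mark the median of all genes. The filled points number 18 and 25 with siVRK1 and 30 and 29 with luteolin, and all of them lie left of 0.

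**Figure D4:**
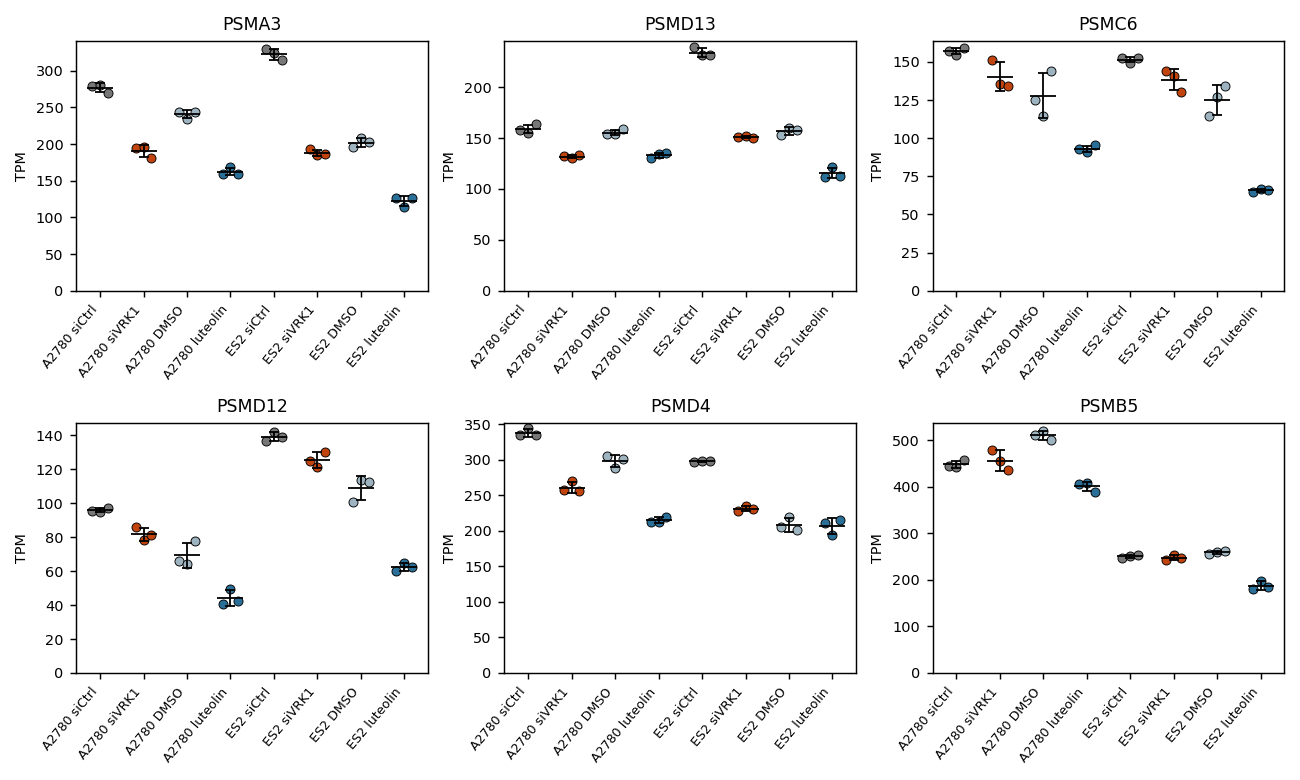
TPM by library of PSMA3, PSMD13, PSMC6, PSMD12, PSMD4 and PSMB5 in the 8 groups, with points for libraries and bars for the mean and SD. PSMB5 is level across siCtrl and siVRK1 in both lines, PSMC6 drops to 64.6 to 66.9 TPM with luteolin in ES2, and PSMD4 drops with luteolin in A2780 while its ES2 points overlap.

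With luteolin the members fell in both lines, and the order of their changes was less alike than with siVRK1 by the correlation, a difference that was not tested. Across the 31 members the changes of the lines correlated at r = 0.253 (rho 0.232), given as a description. The test of the difference between the lines found 9 members with a less negative change in ES2 and 9 with a more negative one, against 14.7% and 35.8% of the 14328 genes. PSMD4 differed by 0.46 ± 0.06 (adjusted p = 1.29e-06), having gone from 305, 289 and 301 TPM to 212, 213 and 220 in A2780 without overlap. PSMB3, a beta subunit, differed by 0.34 (adjusted p = 4.47e-05), PSMA2 by 0.32 (adjusted p = 0.00286), PSMA7 by 0.30 (adjusted p = 6.09e-06), PSMC3 by 0.27 (adjusted p = 0.000105) and PSMB7 by 0.19 (adjusted p = 0.00428). In the other direction PSMC6 differed by -0.47 ± 0.09 (adjusted p = 0.000363), and it was at 125, 115 and 144 TPM with DMSO and 92.8, 91.2 and 95.3 with luteolin in A2780. PSMC1 differed by -0.43 (adjusted p = 2.4e-06), PSMD2 by -0.39 (adjusted p = 1.81e-06), PSMC4 by -0.29 (adjusted p = 0.00225) and PSMD14 by -0.26 (adjusted p = 0.00508). The differences of PSMB5 (-0.12, adjusted p = 0.0615) and PSMB6 (0.04, adjusted p = 0.516) did not pass, but both depend on the setting. PSMB6 passed with median-of-ratios scaling (0.25, adjusted p = 0.00732). PSMB5 passed with quantile normalization (-0.22, adjusted p = 0.003), without mitochondrial mRNAs (adjusted p = 0.0405), and without A2780 luteolin replicate 3 (adjusted p = 0.0394) or ES2 luteolin replicate 2 (adjusted p = 0.0115), and was at 0.10 with median-of-ratios scaling (adjusted p = 0.257).

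Counted by particle, 6 of the 14 20S genes were less negative in ES2 and 2 more negative, and of the 17 19S genes 3 and 7. The shares of all genes were 14.7% and 35.8%. No lid subunit was less negative in ES2 and 3 of 8 were more negative, while none of the 4 non-catalytic beta subunits was more negative and 3 were less so. The 7 of 17 19S genes and 3 of 8 lid genes are near the share of all genes called more negative. The counts of none rest on 8 lid and 4 beta genes, too few to be told from those shares. Whether the particles differ was not tested, and no counts by particle were made under other scalings. The median of all genes in this comparison was -0.20, moved to -0.02 by median-of-ratios scaling, and under that scaling 18 members were less negative and 3 more negative, against 25.1% and 24.3% of all genes. Relative to the all-gene median PSMD4 was at 0.65, PSMB3 at 0.53, PSMC6 at -0.27, PSMC1 at -0.24 and PSMD2 at -0.20. Under that scaling PSMC6 (adjusted p = 0.00629), PSMC1 (adjusted p = 0.014) and PSMD2 (adjusted p = 0.00852) were still called, while PSMC4 (adjusted p = 0.441) and PSMD14 (adjusted p = 0.59) were not. With the leading transcript of each gene alone, PSMA2 (0.03, adjusted p = 0.658) and PSMC6 (-0.17, adjusted p = 0.089) were not called, and PSMC4 was not called with protein-coding transcripts alone (-0.14, adjusted p = 0.087). The leading transcript alone gave 0.62 for PSMC3 and -0.15 for PSMD2.

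**Figure D5:**
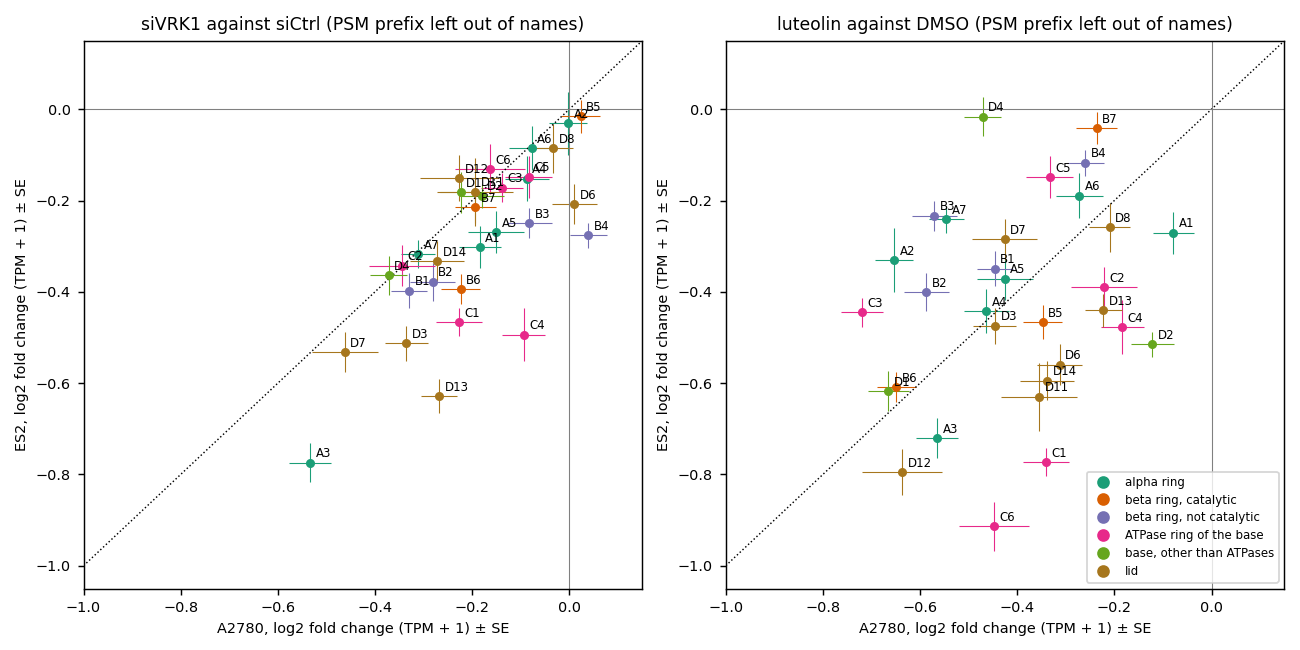
Log2 fold change of each member in A2780 (x axis) and ES2 (y axis) with siVRK1 (left) and luteolin (right), with SE bars, colours by subcomplex and the PSM prefix left out of the names; the dotted line marks equal change. With siVRK1 the points follow the line (r = 0.739) with PSMC4, PSMD13 and PSMB4 below it, and with luteolin they scatter (r = 0.253), PSMD4 and PSMC6 being farthest apart.

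Over the 4 treatments, 15 members were lower in all 4, 10 in 3 and 6 in 2, against 2.67%, 8.70% and 19.7% of the 11304 genes tested in both lines. These shares cover genes of every level. Genes at or above the lowest member's level were called lower more often than all genes in each treatment. Their share lower in all 4 was not computed. The 15 were PSMA3, PSMA7, PSMB1, PSMB2, PSMB6, PSMC1, PSMC2, PSMC3, PSMD1, PSMD2, PSMD3, PSMD7, PSMD12, PSMD13 and PSMD14. With protein-coding transcripts alone 15 members were lower in all 4, against 3.47% of genes, with PSMA1 in place of PSMD12. PSMA5 and PSMD12 were lower in 1 treatment in that setting. With median-of-ratios scaling 10 members were lower in all 4, against 3.37% of genes; PSMB6, PSMC1, PSMC3, PSMD2 and PSMD12 were then lower in 3. The deubiquitinase PSMD14 was lower in all 4 under either scaling. The 6 with calls in luteolin alone were PSMA2, PSMA6, PSMB5, PSMC6, PSMD8 and PSMD11, which were lower in both lines with luteolin and not called in either with siVRK1; PSMC6 was lower in 3 with median-of-ratios scaling or without mitochondrial mRNAs, and PSMD11 with protein-coding transcripts alone. For PSMA2, PSMA6 and PSMB5 the libraries of siCtrl and siVRK1 overlapped in both lines, and those of DMSO and luteolin in neither. Whether the 2 treatments differ in these genes was not tested. Lower calls in exactly 2 treatments, in any combination, were given to 19.7% of the 11304 genes, a share near that of the members (6 of 31). The share of all genes called lower with luteolin in both lines and with siVRK1 in neither was not computed. Within a line the changes with siVRK1 and with luteolin, which share no control, correlated little across the members (r = 0.202 in A2780 and 0.132 in ES2).

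The table lists 317 transcripts for the 31 genes, of which GENCODE 29 annotates 136 as protein coding, 105 as retained intron, 37 as targets of nonsense-mediated decay and 27 as other processed transcripts, while 12 are not in that release. Protein-coding transcripts held 85.1% to 87.9% of the members' TPM in the group means. The retained-intron share was 4.37% ± 0.266 (SD, n = 3) with DMSO and 7.21% ± 0.149 with luteolin in A2780, at 4.29%, 4.15% and 4.67% against 7.17%, 7.09% and 7.38%. In ES2 it was 5.85% ± 0.0751 and 5.45% ± 0.302, at 5.93%, 5.86% and 5.78% against 5.11%, 5.57% and 5.68%. The groups thus lie apart in both lines, with the share higher under luteolin in A2780 and slightly lower in ES2. The retained-intron share over the transcripts of all genes was not computed, so these shifts cannot be called particular to the members. The leading transcript of PSMC1 and of PSMD12 is annotated as retained intron, and that of PSMA4, PSMA5 and PSMB2 as a processed transcript. With protein-coding transcripts alone, 17, 23, 31 and 26 members were lower in A2780 siVRK1, ES2 siVRK1, A2780 luteolin and ES2 luteolin. The shares of all genes called lower in these fits were 31%, 30.3%, 25.6% and 28.5%. Protein-coding sums of 6 members were above 0 in A2780 with siVRK1, none of them called. In ES2 with siVRK1 the 1 member above 0 was PSMD12, called higher, whose protein-coding sum was 31.8, 28.5 and 31.9 TPM with siCtrl and 41.8, 41.2 and 44.2 with siVRK1 (0.45, adjusted p = 0.000252), while its other transcripts went from a mean of 109 to 83.1 TPM. Pseudogenes named after a member (29 symbols for 11 members) reached at most 4.46% of their parent's TPM, for PSMC1.

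Other genes of the pathway were read from 7 lists of 38 genes, against the same background shares of calls. With siVRK1, 13.8% of all genes were called higher and 27% lower in A2780, and 26.8% and 28% in ES2. With luteolin these shares were 45.6% and 19.9% in A2780, and 22.6% and 25.8% in ES2. The lists are short and were not tested as sets. With luteolin the NFE2L1 list, with NFE2L1 itself, its protease DDI2, NGLY1, VCP and the related factor NFE2L2, had 5 of 5 genes higher in A2780 and 1 higher and 1 lower in ES2. With siVRK1, 4 of 5 were lower in A2780 and 4 lower and 1 higher in ES2. NFE2L1 was at 79.1 ± 9.46 TPM (SD, n = 3) with DMSO and 107 ± 4.54 with luteolin in A2780 (0.43, adjusted p = 0.000225), and at 67.2 ± 1.33 and 60.1 ± 4.43 in ES2 (-0.16, adjusted p = 0.0707). Its highest control library in A2780 was at 90.0 TPM and its lowest luteolin library at 102. Relative to the all-gene median NFE2L1 was at 0.22 in A2780, the other 4 genes of its list lay between -0.10 and 0.03, and the leading transcript of NFE2L1 alone gave -0.02 (adjusted p = 0.778). In ES2 NFE2L1 was called lower with median-of-ratios scaling (-0.17, adjusted p = 0.038), with protein-coding transcripts alone (-0.20, adjusted p = 0.0339) and without luteolin replicate 3 (-0.21, adjusted p = 0.0361). With siVRK1, NFE2L1 was called in ES2 (0.23, adjusted p = 0.0112) and not in A2780 (0.13, adjusted p = 0.175), and the difference between the lines did not pass (adjusted p = 0.504). In A2780 it was called higher with median-of-ratios scaling (0.22, adjusted p = 0.00901) and quantile normalization (0.23, adjusted p = 0.00606). In ES2 the leading transcript alone gave 0.05 (adjusted p = 0.688), and the call was lost without siCtrl replicate 1 (adjusted p = 0.0534) or siVRK1 replicate a (adjusted p = 0.0545). VCP, the ATPase that extracts ubiquitinated proteins, was at 211 to 220 TPM with DMSO and 117 to 119 with luteolin in ES2 (-0.87, adjusted p = 5.77e-10). In A2780 VCP was at 218 to 227 TPM with DMSO and 241 to 244 with luteolin (0.12, adjusted p = 0.0307), which is -0.10 relative to the all-gene median.

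Shuttle factors carry ubiquitinated cargo to the proteasome or, for SQSTM1, to autophagy. SQSTM1 was at 47.5 to 54.1 TPM with DMSO and 188 to 224 with luteolin in A2780, and at 70.1 to 79.4 and 139 to 173 in ES2, a rise of 2.002 and 1.03 on the log2 scale (adjusted p = 1.36e-08 and 1.18e-06; 0.85 in A2780 with the leading transcript alone). With siVRK1 SQSTM1 fell in A2780 (-1.07, adjusted p = 1.14e-05) and in ES2 (-0.87, adjusted p = 2.89e-06). In A2780 it was at 110.5 to 127 TPM with siCtrl and 46.8 to 66.2 with siVRK1. In ES2 these levels were 171 to 176 and 83.1 to 100.9. The siCtrl libraries were thus above the DMSO libraries in both lines, a difference between controls that was not tested. The list of 7 had 4 genes higher and 2 lower with luteolin in A2780, 2 and 3 in ES2, and 1 higher with 4 lower in either siVRK1 comparison. The shares of all genes called higher and lower were 45.6% and 19.9%, then 22.6% and 25.8%, with luteolin. With siVRK1 they were 13.8% and 27% in A2780 and 26.8% and 28% in ES2. ZFAND2A fell by 1.21 with siVRK1 in ES2 (adjusted p = 2.12e-06), and RAD23B fell by 0.56 with luteolin in ES2 (adjusted p = 4.05e-08).

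Among the 9 assembly chaperones, POMP, which matures the core, fell with luteolin in both lines, by 0.35 in A2780 (limma's adjusted p = 2.65e-05) and 0.36 in ES2 (limma's adjusted p = 9.84e-06). PSMD9, a chaperone of the base, rose with siVRK1 from 57.3 to 67.4 TPM to 82.4 to 88.5 in A2780 and from 52.3 to 57.4 to 87.9 to 99.2 in ES2 (0.42 and 0.79, adjusted p = 0.000663 and 2.13e-07). Another base chaperone, PSMD10, fell with siVRK1 in both lines (-0.34 and -0.62, adjusted p = 0.00405 and 3.48e-08). The chaperones numbered 2 higher and 3 lower of 9 in A2780 and 2 and 4 in ES2 with siVRK1, and 2 and 3, then 3 and 3, with luteolin. The shares of all genes, in the same order, were 13.8% and 27%, 26.8% and 28%, 45.6% and 19.9%, and 22.6% and 25.8%. ADRM1, a ubiquitin receptor of the 19S particle outside the 31, fell with siVRK1 in ES2 from 225 to 228 TPM to 153 to 155 (-0.56, adjusted p = 3.98e-08). With luteolin its fall was 0.19 in A2780 (limma's adjusted p = 0.00481; 0.0991 with quantile normalization) and 0.39 in ES2 (adjusted p = 1.63e-06). In its list of 5, 2 and 3 genes were lower with siVRK1, with 1 higher in ES2, and 1 and 4 were lower with luteolin.

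The immunoproteasome subunits, which replace the catalytic ones in cells under interferon, are given briefly. PSMB9 was at 25.5 to 34.4 TPM with DMSO and 4.07 to 5.67 with luteolin in A2780 (-2.49 ± 0.17, adjusted p = 7.07e-08; -1.40 with protein-coding transcripts alone). In ES2 it was at 7.57 to 9.17 with DMSO and 11.7 to 16.4 with luteolin (0.62 ± 0.13, adjusted p = 0.00141), so the difference between the lines was 3.12 (adjusted p = 1.05e-09; 1.51 with protein-coding transcripts alone). Its ES2 rise was not called with protein-coding transcripts alone (0.11, adjusted p = 0.612). With siVRK1 in ES2 it fell by 1.60 (adjusted p = 4.36e-07), from 7.89 to 10.2 TPM to 2.23 to 2.49, and protein-coding transcripts alone gave -0.83 and the leading transcript -0.87. PSMB8 was at 0.637 TPM or less in every A2780 library and at 25.97 to 47.7 in ES2, and was not tested within A2780. PSMB10 rose with siVRK1 in A2780 (0.44, adjusted p = 0.00086), but protein-coding transcripts alone gave -0.64 (adjusted p = 0.0083). The activators and inhibitor had 2 and 3 of 5 lower with siVRK1, 3 of 5 lower with luteolin in A2780, and 3 higher with 2 lower in ES2. PSME1, a cap of the core, fell by 0.73 in A2780 (adjusted p = 4.1e-07), and rose by 0.31 in ES2 (adjusted p = 0.000401) with luteolin. Of 4 ubiquitin and E1 genes, UBB, which encodes polyubiquitin, fell with luteolin in A2780 (-0.38, adjusted p = 1.57e-07; -0.09 with quantile normalization and -0.64 with median-of-ratios scaling) and in ES2 (-0.31, adjusted p = 1.56e-06), with 2 higher and 1 lower in A2780 and 0 higher and 3 lower in ES2. With siVRK1 that list had 1 higher and 2 lower in A2780 and 0 higher and 2 lower in ES2. For these lists too, the shares of all genes called higher and lower with siVRK1 were 13.8% and 27% in A2780 and 26.8% and 28% in ES2. With luteolin they were 45.6% and 19.9% in A2780 and 22.6% and 25.8% in ES2.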

How the data were processed

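Per the labels' protocols, RNA was column-purified and sequenced by an outside company in 24 libraries, 3 for each of 8 groups, which were read from the titles. FastQC, kallisto and hg19 are named, without versions, per the submitters' processing notes. The authors deposited TPM per transcript with a gene symbol; the 193845 lines hold 191887 transcripts, and the 1958 repeated lines were identical. TPM of the deposited table sum to 1000000 in each library, so depth is unknown and the spread of the 3 libraries is the measure of precision. Left out were 19 transcripts with several symbols and 9542 with no symbol (0.514% to 1.03% of TPM). The letters a and b stand for a pair of ES2 siVRK1 columns with 1 name.

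TPM were summed per symbol and tested by limma-trend on log2 of TPM + 1, using version 3.58.1 of limma and R 4.3.3 (two-sided, Benjamini-Hochberg over all genes tested, adjusted p below 0.05), for genes that reached a TPM of 1 in 3 or more libraries. Fits within a line used its 12 libraries, and fits between lines all 24. The pseudocount makes changes of genes near 1 TPM smaller than they are. Members, the 7 lists of 38 related genes and the tests were chosen with earlier results of these data known. Named were the 5 largest rises and falls among called members without overlap, PSMB5, PSMB6, PSMB7, PSMD4 and PSMD14 throughout, NFE2L1, VRK1, and per related list the largest rise and fall; the text gives some of the related genes. Other genes named singly (PSMA1, PSMA6, PSMD6, PSMD8, VCP in A2780, POMP, PSMD9, PSMB8 levels) were chosen after their values were seen. Some related genes are not reported here. Same-numbered libraries did not deviate together. Annotation was GENCODE 29 and RefSeq GRCh38.p14, matched by transcript ID or symbol. Reads of overlapping genes and pseudogenes cannot be told apart with certainty, and the strand setting is not stated in the labels. The alternatives were other pseudocounts, filters, scalings, transcript sets, sets of libraries, a replicate block and leaving out each library; 2 of them, protein-coding transcripts only and removal of mitochondrial mRNAs, were chosen after seeing the data. The steps were tested on simulated data.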

Additional observations from a re-analysis of the deposited data

Results flagged for a closer look

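The results below are those in which the effect of a treatment differed between ES2 and A2780 by the interaction test of limma (adjusted p below 0.05 over 14328 genes). Values are the log2 change in ES2 minus that in A2780. With siVRK1, 9 members differed, among them PSMC4 (-0.40), PSMD13 (-0.36), PSMB4 (-0.32), PSMA3 (-0.24), PSMC1 (-0.24) and PSMB6 (-0.17). Related genes that differed with siVRK1 were PSMB9 (-1.31), ZFAND2A (-0.86), PSME2 (-0.50), NFE2L2 (-0.47), ADRM1 (-0.32), PSMD10 (-0.28) and RPS27A (-0.18) on the lower side, and PSMG1 (0.50), PSME4 (0.35) and RAD23B (0.24) on the higher side. RPS27A was not called without A2780 siCtrl 2, A2780 siVRK1 2 or 3, ES2 siCtrl 3 or ES2 siVRK1 a (adjusted p from 0.0518 to 0.0609), nor with protein-coding transcripts alone (adjusted p = 0.0523). RAD23B was not called without A2780 siCtrl 1 (adjusted p = 0.0559) or with median-of-ratios scaling (0.13, adjusted p = 0.132). With protein-coding transcripts alone the PSMB9 difference was -0.56 and not called (adjusted p = 0.13).

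With luteolin, 9 members had a less negative change in ES2, among them PSMD4 (0.46), PSMB3 (0.34), PSMA2 (0.32), PSMA7 (0.30), PSMC3 (0.27) and PSMB7 (0.19). The 9 with a more negative change in ES2 included PSMC6 (-0.47), PSMC1 (-0.43), PSMD2 (-0.39), PSMC4 (-0.29) and PSMD14 (-0.26). Among related genes the differences with luteolin were 3.12 for PSMB9, 1.04 for PSME1, 0.86 for PSMG4 and 0.20 for UBQLN4, and, below 0, -1.07 for UBA6, -0.98 for VCP, -0.98 for SQSTM1, -0.56 for PSMD10 and -0.39 for ECPAS. With the leading transcript alone VCP was at -0.64, while SQSTM1 (-0.05, adjusted p = 0.766) and ECPAS (-0.20, adjusted p = 0.0528) were not called. UBQLN4 was not called without A2780 DMSO 1 or 3, A2780 luteolin 1 or 3, ES2 DMSO 2 or 3, or ES2 luteolin 1 or 3 (adjusted p from 0.0613 to 0.113).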

How the results depend on the processing

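Of 268 recomputed counts of members, 256 stayed within 1.5 times the reported count, and of 2997 recomputed values of named genes 2875 kept direction and call. The 256 include every count of 0 that stayed at 0. Refits that left out 1 library, and so share most libraries with the main fit, make up 120 of the 256 and 1298 of the 2875. Median-of-ratios scaling gave, for the members, 11 lower and 1 higher in A2780 siVRK1, 18 lower in the siVRK1 difference between lines, 18 higher and 3 lower in the luteolin difference, and 18 higher and 8 lower in the controls. Quantile normalization called 2 members higher in ES2 luteolin. The leading transcript called 1 member higher in the siVRK1 difference (PSMC3), and protein-coding transcripts called 1 higher there and 1 in ES2 siVRK1 (PSMD12 both times). Same-numbered libraries correlated at -0.052 to 0.038 in their deviations over 14328 genes, with only replicate 3 read for ES2 siVRK1. No shared deviation was seen, but correlations over so many genes cannot settle whether same-numbered libraries shared a culture or batch. The replicate block, which leaves out ES2 siVRK1 a and b and assumes that the lone library varies like the others, left 4 members lower in the siVRK1 difference and ended the calls there of PSMA3 (adjusted p = 0.0992), PSMB6 (0.225), RAD23B (0.185) and RPS27A (0.291); no other count of members moved by over 1.5 times.

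Leaving out 1 library at a time gave 16 to 20 members lower in A2780 siVRK1, 23 to 26 in ES2 siVRK1, 28 to 30 in A2780 luteolin, 28 to 29 in ES2 luteolin and 7 to 9 in the siVRK1 difference, with 8 to 10 higher and 8 to 12 lower in the luteolin difference and 11 to 12 higher and 13 lower in the controls.

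Values that changed sign were mostly near 0. In A2780 siVRK1: NFE2L1 -0.0039 (leading transcript), PSMB10 -0.64 (protein-coding transcripts), PSMB5 -0.0116 to 0.0574 over the left-out libraries. In ES2 siVRK1, PSMB5 was 0.0628 with quantile normalization. In A2780 luteolin the leading transcript gave -0.0223 for NFE2L1 and -0.9609 for PAAF1. In ES2 luteolin quantile normalization gave 0.1219 for PSMB7 and 0.1266 for PSMD4, removal of mitochondrial mRNAs 0.0075 and 0.0331, and left-out libraries -0.0476 to 0.0295 for PSMD4 and -0.0518 to 0.1143 for VRK1. In the siVRK1 difference PSMD4 was -0.1008 with median-of-ratios scaling, -0.0199 with the replicate block, -0.0076 without mitochondrial mRNAs and -0.0074 to 0.0319 over left-out libraries, PSMB7 was 0.0047 with quantile normalization and -0.0394 to 0.0039 over left-out libraries, and PSMD14 was 0.0331 with the block. In the luteolin difference PSMB5 was 0.0956 with median-of-ratios scaling. In the controls PSMB6 and PSMB7 were -0.012 and -0.0088 without mitochondrial mRNAs. The cause was not tested for any of these. Counting error cannot be given because depth is unknown.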
